A study of Mus musculus with 10 samples.

Results

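The genotype by acetate interaction asks, at each open chromatin site, whether the difference between pyruvate dehydrogenase knockout and control Th17 cells was the same with acetate as without it. It was computed as the KO minus WT difference with acetate, minus the KO minus WT difference without acetate, on log2 of median-scaled ATAC-seq signal plus 1. A negative value means that KO stood lower relative to WT with acetate than without it. All 10 of the 10 libraries enter the contrast: KO with acetate (n = 2), WT with acetate (n = 2), KO untreated (n = 3) and WT untreated (n = 3). KO cells came from mice with floxed PDH alleles and a CD4-driven Cre, spelled PHD-fl/fl CD4cre in the sample titles. WT cells came from mice with the floxed alleles and no Cre, so every group carried floxed alleles and only the KO groups carried Cre. Naive CD4+ T cells from spleen and lymph nodes were kept for 3 days under Th17 conditions, with antibodies to CD3, CD28 and interferon-gamma, IL-6 and TGF-beta. Acetate groups had 10 mM sodium acetate in the medium throughout differentiation. No label says that the libraries of a group came from separate mice or cultures, so p-values measure only the spread between these libraries.

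Pyruvate dehydrogenase makes acetyl-CoA from pyruvate inside mitochondria, and that acetyl-CoA enters the TCA cycle as citrate. Exported citrate is split to acetyl-CoA by ATP citrate lyase (Acly), while acetate is turned into acetyl-CoA by Acss2, and both routes feed fatty acid synthesis and histone acetylation. Th17 cells are helper T cells defined by the cytokines IL-17A and IL-17F, and BATF is an AP-1 factor they need. ATAC-seq reads where a transposase can reach the DNA, so its signal measures how open a site is.

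Reads in sites ranged from 5640663 to 11047781 in KO with acetate, 3500172 to 13356560 in WT with acetate, 5972169 to 10336677 in untreated KO and 9033536 to 9623689 in untreated WT. The median site held 57 to 233 reads per library. The helper T cell loci Cd3e (8 sites) and Cd3g (1 site) were in the table with no called interaction, while Trac, annotated as a receptor constant region, was not among the protein-coding genes that sites were assigned to. Column names began with ATAC1 for all 3 untreated KO libraries and 2 of the 3 untreated WT libraries, and with ATAC2 for the other 5 libraries, which include all 4 acetate libraries. No column prefix held all 4 groups, so no interaction within a prefix can be had. A prefix offset that differs between the genotypes and the interaction cannot be told apart.

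The 39657 sites in the table were themselves set apart by 1 component of the interaction. On the deposited scale, 5 of 39657 sites (0.0126%) had an untreated KO minus WT difference within 0.25 log2 of 0. For KO minus WT with acetate, on the same scale, 25868 sites (65.2%) lay within 0.25 of 0. The table thus holds sites that differed between untreated KO and WT as deposited, 3691 of them higher and 35966 lower in untreated KO. The interaction contains that untreated difference, so its counts below describe these selected sites and are not shares of all open chromatin. The adjusted p-values of the interaction do not allow for this selection. The KO minus WT difference with acetate uses none of the untreated libraries.

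The interaction was called lower at 2508 of 39657 sites (6.32%) and higher at 107 (0.27%), 6.59% in either direction (limma, Benjamini-Hochberg adjusted p below 0.05). The count of higher sites depended on the scaling. With the values as deposited it was 7728, against 1431 lower, and the median of all sites moved to 0.67. The column medians as deposited were 91.0, 94.3 and 117 in untreated KO and 142 to 191 in the other libraries. The median scale sets these medians equal. Single libraries moved the counts too. There were 1462 lower and 13 higher sites without KO acetate 1, 1500 and 29 without KO acetate 3, 1443 and 83 without WT acetate 2, and 2145 and 20 without WT acetate 1. Without KO untreated 2 or 3 there were 1648 and 1615 lower and 48 and 27 higher sites. Higher sites numbered 58, 169 and 581 without WT untreated 1, 2 and 4. On the median scale with all libraries the median interaction was 0.08, with quartiles of -0.14 and 0.31, and 40.3% of sites lay below 0. Of the 2508 sites called lower, 2507 belonged to the 3691 sites that were higher in untreated KO as deposited. That is 67.9% of those 3691 sites, and 3683 of the 3691 had an interaction below 0. Their median KO minus WT difference was 0.22 with acetate and 1.84 untreated, both on the log2 median scale.

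**Figure D1:**
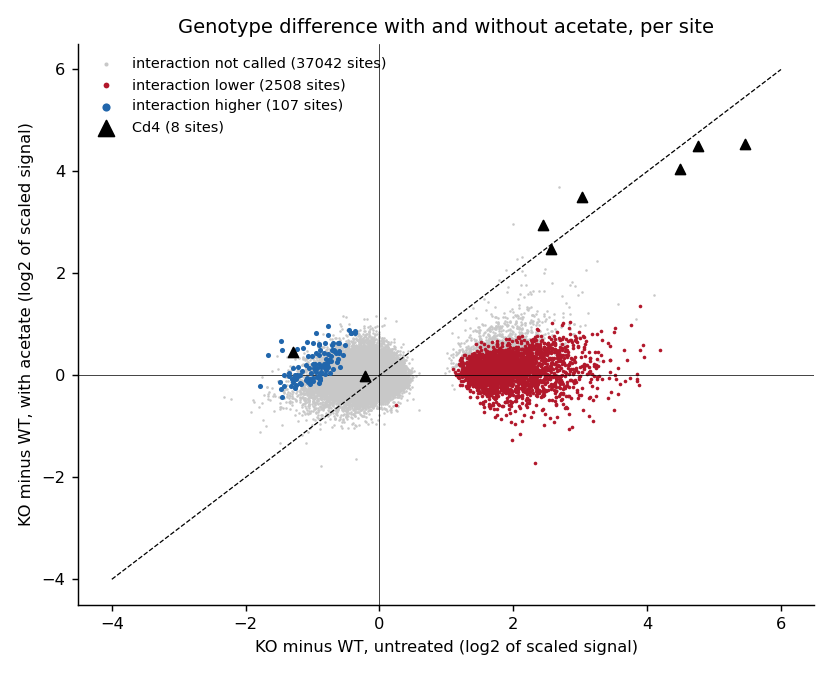
Each point is 1 of 39657 sites, with the untreated KO minus WT difference on the x axis and the KO minus WT difference with acetate on the y axis, both in log2 of scaled signal. The dashed line marks equal differences (interaction of 0). The sites form 2 clouds along the x axis, and the 2508 sites called lower (red) lie almost all in the right one, near 0 on the y axis, while 6 of the 8 Cd4 sites (triangles) lie near the dashed line.

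At the sites called lower, untreated KO cells stood alone. The median scaled signal over the 2508 sites was 46.5 and 48.0 in KO with acetate and 40.9 and 44.7 in WT with acetate. It was 129, 146 and 146 in untreated KO and 32.3, 40.4 and 33.7 in untreated WT. The 2 KO acetate libraries lay close to the WT libraries, and the 3 untreated KO libraries lay far above both. Untreated KO had the highest group mean at 2483 sites (99%). All 3 untreated KO libraries lay above the other 7 at 2424 of the 2508 sites (96.7%), against 4444 of all sites (11.2%). The call itself uses the untreated KO libraries, and 2507 of the 2508 sites were higher in untreated KO as deposited. These counts thus describe the call and do not support it. The median interaction over these sites was -1.81, with quartiles of -2.16 and -1.50.

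The 4 simple differences share libraries with the interaction and describe it without supporting it. KO exceeded WT untreated at 2507 of the 2508 sites, with a median log2 difference of 1.89 (limma called 9.35% of all sites higher in this comparison, and 14.1% in either direction). With acetate, KO against WT was called at 0 of the 2508 sites (median 0.11; 9 of all sites, 0.0227%). Within KO, acetate went with lower signal at 2292 sites, higher signal at 1 and neither at 215 (median -1.59; 15.1% of all sites lower). Within WT, acetate went with higher signal at 311 sites and lower signal at 41 (median 0.27; 3.68% of all sites higher and 4.24% lower, 7.93% in either direction), and 2156 sites were not called. Among untreated WT libraries the ATAC2 library differed from the ATAC1 libraries by a median of -0.08 at these sites.

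At the 107 sites called higher the picture was the mirror image and smaller. Median scaled signal was 134 and 133 in KO with acetate and 117 and 133 in WT with acetate. It was 59.6, 56.2 and 54.4 in untreated KO and 105, 111 and 121 in untreated WT. Untreated KO had the lowest group mean at 99 sites (92.5%), and all 3 of its libraries lay below the other 7 at 88 sites (82.2%, against 9.88% of all sites). The call uses these libraries too, so these counts describe the call without supporting it. Untreated KO was called lower than untreated WT at 96 of the 107 sites (4.72% of all sites), and within KO acetate went with higher signal at 94 (13.7% of all sites). The median interaction was 1.16. At the sites with no call, the medians of all 10 libraries lay between 146 and 160.

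**Figure D2:**
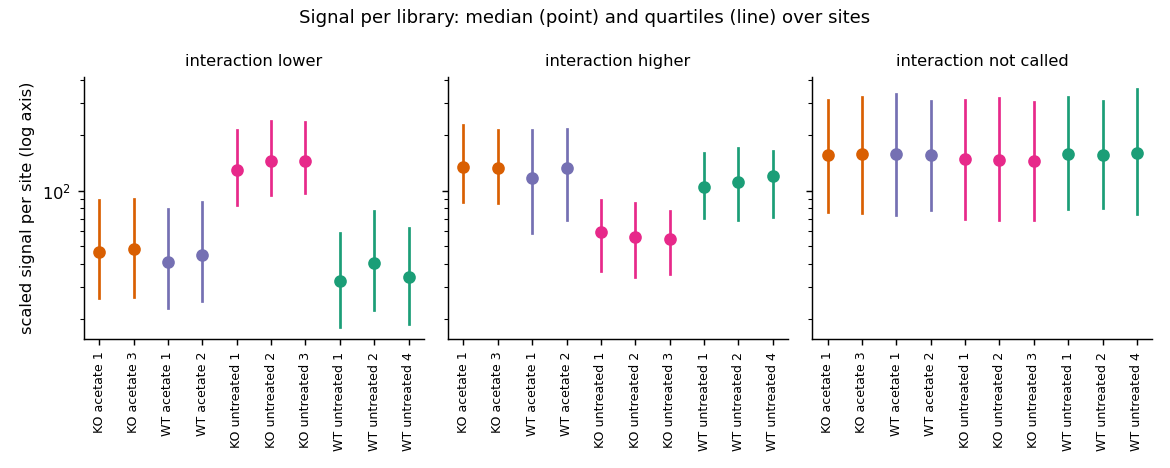
Points give the median and lines the quartiles of scaled signal (log axis) in each of the 10 libraries, over the sites called lower, called higher and not called in the interaction. The 3 untreated KO libraries stand above the other 7 in the left panel (129 to 146 against 32.3 to 48.0) and below them in the middle panel (54.4 to 59.6 against 105 to 134).

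Sites that were higher in untreated KO but had no call in the interaction numbered 1184, and 922 of them had an unadjusted p below 0.05. Their median KO minus WT difference was 0.52 with acetate and 1.75 untreated, a median interaction of -1.21. KO with acetate stayed more than 1 log2 above WT with acetate at 137 of the 3691 sites. Of these 137 sites 4 were called lower in the interaction, near Plekhg1, Myo1d, Bmpr1b and Rhbdl2. These 4 were singled out after their values were seen.

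Called sites were uncommon at gene ends. A called negative interaction was found at 81 of 9477 sites within 1 kb of a gene end (0.855%), 1283 of 17014 sites in a gene (7.54%), 662 of 9953 between genes (6.65%) and 482 of 3213 with no protein-coding gene within 50 kb (15%). The order followed where sites higher in untreated KO lay, which were 1.48%, 10.9%, 9.67% and 22.6% of the same 4 kinds. Among the sites higher in untreated KO, the share called lower in the interaction was 57.1% near gene ends, 68.9% in genes, 68.8% between genes and 66.3% far from genes. The 4 kinds of site differed widely in how many sites were higher in untreated KO and little in the share of those sites that was called.

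Weak sites held most of the calls. Sites were split into 5 equal bins by mean signal, and from the weakest to the strongest bin 16.2%, 7.86%, 5.11%, 2.09% and 0.366% were called lower. Among sites higher in untreated KO the share ran the other way, 59.9% in the weakest bin, 75.3%, 81.3% and 88.2% in the next, and 87.9% in the strongest, where there were 33 such sites. The autosomes and X ranged from 4.13% of sites called lower on chromosome 17 to 9.11% on chromosome 18. Of the 12237 genes that were nearest to a site, 1643 had a site called lower, and 1197 of these also had a site that was not called. There were 86 genes with a site called higher and 12 with both.

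**Figure D3:**
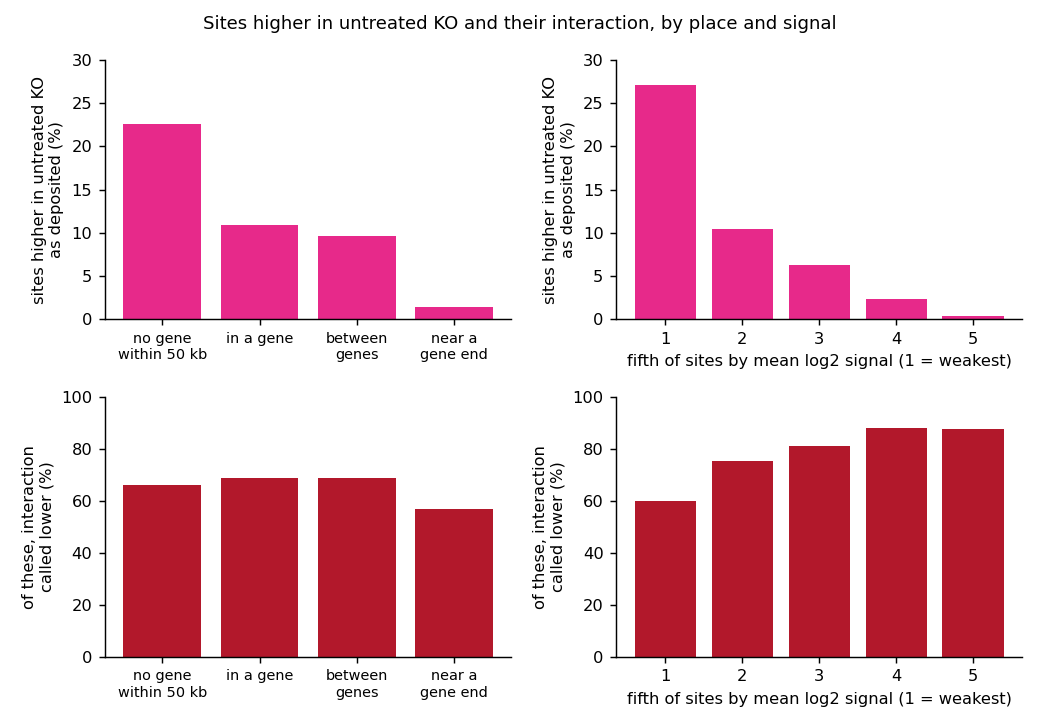
Bars in the upper row give the percent of sites that were higher in untreated KO than in untreated WT as deposited, and bars in the lower row the percent of those sites whose interaction was called lower, by place (left) and by bin of mean signal (right, 1 the weakest and 5 the strongest). The upper bars range from 1.48% near gene ends to 22.6% far from genes, while the lower bars on the left stay between 57.1% and 68.9%.

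The strongest negative interactions among well covered sites were named by rule. They were the 10 most negative called sites with a gene, at or above the median signal, that kept their sign with each library left out. In Aqp4, a water channel gene, the site at chromosome 18, 15401764 to 15401964, had 127 and 147 in KO with acetate, 143 and 156 in WT with acetate, 504, 624 and 598 in untreated KO, and 78.0, 115 and 59.4 in untreated WT. Both acetate groups lay between the untreated groups, and untreated KO did not overlap any other group. Its interaction was -2.93 ± 0.32 (log2, SE; limma adjusted p = 0.000537). All 4 Aqp4 sites were called lower.

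Dmc1, a recombinase gene of meiosis, gave the smallest p of the 10 at a site within the gene at chromosome 15, 79601040 to 79601240. Scaled signal there was 139 and 152 in KO with acetate, 140 and 159 in WT with acetate, 707, 771 and 760 in untreated KO, and 141, 154 and 148 in untreated WT. The 3 groups other than untreated KO overlapped closely. The interaction was -2.37 ± 0.21 (limma adjusted p = 0.00012). Gfpt1, the first enzyme of the hexosamine pathway, showed the same shape, with 85.3 and 104 in KO with acetate, 91.9 and 91.2 in WT with acetate, 449, 529 and 616 in untreated KO and 105, 123 and 89.1 in untreated WT (interaction -2.28 ± 0.27).

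Other sites of the 10 were near Arhgap25, a GTPase-activating protein (-2.70 ± 0.38), Fscn1, the actin bundler fascin (-2.42 ± 0.29), Pced1b (-2.34 ± 0.51), Lemd3 of the inner nuclear membrane (-2.22 ± 0.29), the kinase gene Stk33 (-2.22 ± 0.34) and the mitochondrial gene ND4. Untreated KO stood apart from all other libraries at 10 of the 10 sites. All 3 untreated KO libraries lay above the other 7 at 96.7% of the sites called lower and 11.2% of all sites. The 10 were chosen by an interaction that uses these libraries, so the count describes the choice. In fits that each left out 1 library, 8 of the 10 were called in every fit, the exceptions being Pced1b, called in 8 of 10, and ND4, called in 5 of 10. Under the 4 other scalings 9 of the 10 were called each time, and ND4 in none.

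Positive interactions were smaller on the median scale. Plb1, encoding phospholipase B1, lay nearest to a site at chromosome 5, 32196086 to 32196286, with 229 and 149 in KO with acetate, 220 and 186 in WT with acetate, 70.1, 70.6 and 79.4 in untreated KO and 208, 233 and 181 in untreated WT. Untreated KO was lowest, and the other 3 groups overlapped. The interaction was 1.35 ± 0.28 (limma adjusted p = 0.00736). At Grk5, a kinase gene for G protein-coupled receptors, values were 283 and 224 in KO with acetate, 273 and 233 in WT with acetate, 78.9, 76.4 and 74.97 in untreated KO and 169, 200 and 160 in untreated WT (1.19 ± 0.24). Acetate libraries of both genotypes exceeded untreated WT there.

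The remaining 8 were Gm10277 (1.12 ± 0.26), the adhesion molecule gene Pecam1 (1.11 ± 0.30), the ADP-ribosyltransferase gene Parp3 (1.08 ± 0.28), Als2cl (1.01 ± 0.23), the Rab11 effector gene Rab11fip4 (1.00 ± 0.28), the zinc finger gene Zbtb12 (0.99 ± 0.27), the Ras pathway inhibitor gene Spred3 (0.98 ± 0.25) and the N-glycosylation gene Alg14 (0.96 ± 0.24). Pecam1 and Parp3 were the exceptions in shape. At Pecam1 untreated KO had 197, 146 and 178, within reach of WT with acetate at 161 and 172, against 181 and 260 in KO with acetate and 260, 242 and 369 in untreated WT. None of the 10 positive sites was called in every fit that left out 1 library (3 to 9 of 10 fits each), while 9 were called under all 4 other scalings.

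**Figure D4:**
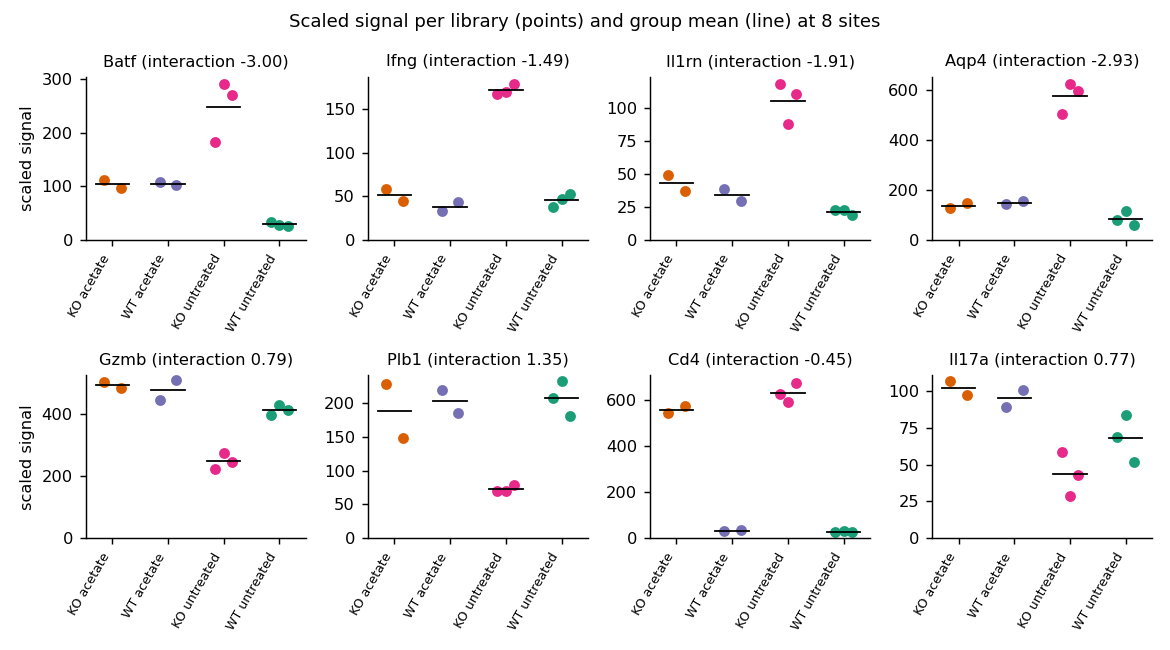
Points give scaled signal per library and lines the group mean at 8 sites, with the groups KO with acetate, WT with acetate, untreated KO and untreated WT from left to right and axes starting at 0. Untreated KO is the highest group at Batf, Ifng, Il1rn and Aqp4 and the lowest at Gzmb and Plb1, both KO groups are high at Cd4, and at the Il17a site drawn (chromosome 1, 20737033 to 20737233, interaction 0.77, not called) untreated KO overlaps untreated WT, below the acetate groups.

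Some genes had several sites called lower. Hdac9, a class IIa histone deacetylase gene, had 7 of its 11 sites called, from -3.07 to -1.49, with none higher. Cd70, the ligand of the co-stimulatory receptor CD27, had 6 of 7 (from -2.25 to -1.06), and Cdkal1, a tRNA-modifying enzyme gene, had 6 of 8. Dscaml1, a neuronal adhesion gene, had 5 of 6, and Exoc4 of the exocyst had 5 of 9. All 4 sites of Aqp4, Etv1, Marco and Rin2 were called lower. Of all sites 6.32% were called lower. These genes were ranked by their number of called sites, so the counts are descriptions.

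Batf carried the most extreme interaction among the helper T cell loci. The site lay between genes at chromosome 12, 85664336 to 85664536, 22184 bases from the gene body on the side of the Batf promoter window. Scaled signal was 113 and 97.5 in KO with acetate, 107 and 103 in WT with acetate, 182, 291 and 270 in untreated KO and 34.2, 28.2 and 26.7 in untreated WT. Untreated KO was highest, untreated WT lowest, and the 4 acetate libraries overlapped in between. The interaction was -3.00 ± 0.31 (limma adjusted p = 0.000537). The other 2 Batf sites, 1 over its promoter window and 1 in the gene, were not called (-0.19 ± 0.24 and 0.24 ± 0.20).

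Ifng, the interferon-gamma gene of Th1 cells, had 1 of 5 sites called. At chromosome 10, 118477599 to 118477799, signal was 57.9 and 44.9 in KO with acetate, 33.2 and 43.1 in WT with acetate, 167, 170 and 179 in untreated KO and 37.1, 46.9 and 52.5 in untreated WT. Untreated KO stood well above every other library, and the remaining groups overlapped. The interaction was -1.49 ± 0.32 (limma adjusted p = 0.00945; called in 8 of 10 fits that left out 1 library). Another Ifng site leaned the other way without a call, at 1.15 ± 0.34 (limma adjusted p = 0.0598).

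The effector loci that define Th17 cells showed no called interaction on the median scale. Il17a and Il17f, the cytokine genes, Il23r, the receptor gene that stabilises the lineage, Il21 and Ccr6 together had 32 sites. Limma called 0 of the 32, against 6.59% of all sites in either direction, and 2 had an unadjusted p below 0.05. The 6.59% came almost wholly from sites higher in untreated KO as deposited, whose median untreated KO minus WT difference was 1.84. At the 32 sites the largest such difference was 0.30. Of the 35966 sites lower in untreated KO as deposited, 0.298% were called higher and 0.00278% lower. The 0 calls thus do not set these loci apart. Their median interaction was 0.07, against 0.08 over all sites, with a range from -0.72 to 1.12 and a median SE of 0.31. As deposited 8 of the 32 were called, and 0 with each of the 3 other scalings.

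By locus, the median interaction was 0.34 at Il17f (4 sites), 0.20 at Ccr6 (3), 0.09 at Il17a (7), 0.03 at Il21 (11) and -0.21 at Il23r (7). The Il17a site with the smallest p, at chromosome 1, 20740575 to 20740775, had 718 and 607 in KO with acetate, 725 and 753 in WT with acetate, 1104, 1137 and 1053 in untreated KO and 917, 1066 and 717 in untreated WT. Untreated KO and untreated WT overlapped there, and the acetate libraries overlapped the lowest untreated WT library. Its interaction was -0.47 ± 0.23 (limma adjusted p = 0.407). Il22 had no site in the table. A missed call does not show equal differences, given an SE of this size.

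Among 8 other loci, those of Tbx21, Gata3 and Foxp3, which specify Th1, Th2 and regulatory T cells, of the IL-2 receptor gene Il2ra, of the naive cell factor gene Tcf7, and of Acss2, Acly and Pdha1, limma called 0 of 46 sites (against 6.59% of all sites; 1 with an unadjusted p below 0.05, 9 called as deposited). The largest untreated KO minus WT difference at the 46 sites was 0.35. Sites lower in untreated KO as deposited were called higher at 0.298% and lower at 0.00278%. Having 0 calls thus does not set these loci apart either. Pdha1, the catalytic subunit gene of pyruvate dehydrogenase, had 1 site, with 67.8 and 55.7 in KO with acetate, 43.4 and 59.3 in WT with acetate, 88.5, 67.7 and 85.3 in untreated KO and 91.3, 83.6 and 101 in untreated WT. KO and WT overlapped within each treatment. The interaction was 0.47 ± 0.31 (limma adjusted p = 0.634). This site does not check the knockout, since the labels do not say which exon was floxed.

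**Figure D5:**
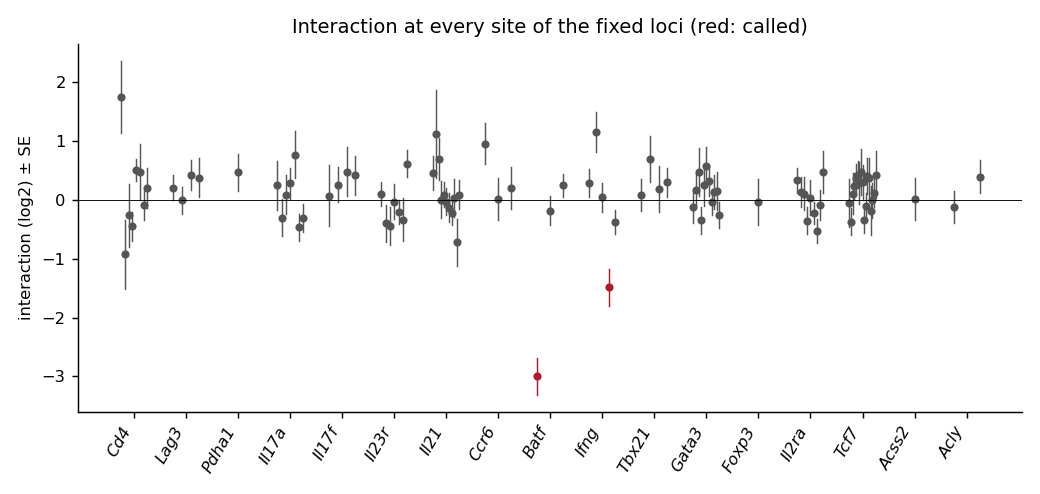
Each point is the interaction (log2) with its SE at 1 site of a locus, with the loci along the x axis and sites called lower in red. Batf and Ifng have 1 called site each, at -3.00 and -1.49, and all other sites shown were not called.

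Gene lists held 1705 sites of 328 genes, of which 59 were called lower (3.46%, against 6.32% of all sites) and 6 higher (0.352%, against 0.27%). The median interaction of list sites was 0.09, against 0.08 over all sites. The 6.32% joins 2 unlike sides. Of the 3691 sites higher in untreated KO as deposited 67.9% were called lower, and of the other 35966 sites 0.00278%. The share of a list thus depends on how many of its sites lay on the higher side, which was not counted. List shares, here and below, are descriptions and do not show a weaker or stronger interaction at the listed genes. In the Th17 list 6 of 213 sites were lower, at Batf, Rora, Maf and Ahr, and 1 was higher, at the IL-1 receptor gene Il1r1. Rora, encoding a nuclear receptor of the Th17 programme, had 77.7 and 97.5 in KO with acetate, 112 and 76.8 in WT with acetate, 375, 427 and 400 in untreated KO and 112, 107 and 149 in untreated WT (-1.81 ± 0.29; limma adjusted p = 0.00215). Only the 3 untreated KO libraries stood out, and at Maf (-1.54 ± 0.31) they were again the highest.

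Th1 and Th2 lists had smaller shares of lower sites than the whole table (6.32%). The Th1 list had 5 of 91 sites lower (5.49%) at 4 genes, among them Il12rb2, Ifng and Fasl, and 1 higher, at Gzmb. Il12rb2, an IL-12 receptor chain gene, had 88.4 and 85.2 in KO with acetate, 102 and 88.7 in WT with acetate, 204, 207 and 232 in untreated KO and 73.2, 93.9 and 58.4 in untreated WT (-1.66 ± 0.29). Untreated KO stood above the other 3 groups, which overlapped. The Th2 list had 3 of 65 lower (4.62%). They were in Rad50, whose gene body holds the control region of the Th2 cytokine locus (-2.40 ± 0.38), near Il5 (-1.54 ± 0.26) and in Il1rl1, the IL-33 receptor gene (-1.21 ± 0.26).

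In lists of other T cell programmes 0 to 2.38% of sites were called lower, against 6.32% of all sites. Regulatory T cell genes had 0 of 91 sites called in either direction. Naive and memory genes had 2 of 270 lower, in Bach2, a repressor of effector genes (-1.67 ± 0.28), and near Klf2 (-1.43 ± 0.32). Activation genes had 3 of 224 lower, at the adhesion receptor gene Cd44 (-2.13 ± 0.44), near Jun (-1.13 ± 0.28) and at Cd28, and 1 higher near the AP-1 gene Fosl2 (0.88 ± 0.22). Near Fosl2 untreated KO was lowest, with 683 and 591 in KO with acetate, 702 and 670 in WT with acetate, 333, 293 and 295 in untreated KO and 545, 592 and 707 in untreated WT. Inhibitory receptor genes had 2 of 84 lower, in Cd200 (-1.35 ± 0.28) and in the exhaustion factor gene Tox (-1.24 ± 0.26).

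Metabolic lists are those nearest to the enzyme and the acetate. In the pyruvate dehydrogenase and TCA cycle list 4 of 73 sites were lower (5.48%, against 6.32% of all sites), at Suclg2 of succinyl-CoA synthetase (-2.07 ± 0.40), Pdhx, a structural subunit of pyruvate dehydrogenase (-1.82 ± 0.46), and Pcx, pyruvate carboxylase (-1.47 ± 0.39), and 1 was higher. Pdhx had 38.9 and 43.3 in KO with acetate, 43.4 and 33.7 in WT with acetate, 63.1, 67.7 and 92.6 in untreated KO and 17.1, 29.1 and 12.9 in untreated WT. The groups followed the order seen at Batf, but Pdhx and Pcx were each called in 3 of the 10 fits that left out 1 library. Glycolysis genes had 2 of 74 lower (2.70%), in Hk1, a hexokinase gene (-1.60 ± 0.25), and in the phosphofructokinase gene Pfkp (-1.73 ± 0.39).

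Citrate export, acetyl-CoA and fatty acid genes had 1 of 56 sites lower, near the elongase gene Elovl5 (-2.00 ± 0.51), and cholesterol synthesis genes 0 of 41 in either direction. Histone acetyltransferase and deacetylase genes had 9 of 110 lower (8.18%, against 6.32% of all sites), 7 of them at Hdac9, with 1 in the acetyltransferase gene Kat6a (-2.46 ± 0.52) and 1 in Hdac8 (-1.43 ± 0.35). At the strongest Hdac9 site, chromosome 12, 34812023 to 34812223, signal was 21.3 and 21.7 in KO with acetate, 35.7 and 26.2 in WT with acetate, 133, 111 and 140 in untreated KO and 31.4, 22.5 and 11.9 in untreated WT (-3.07 ± 0.48; limma adjusted p = 0.00206). KO with acetate lay within the range of untreated WT, and untreated KO stood alone.

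Stress and survival lists had shares of lower sites at or below 5.19%, against 6.32% of all sites. The integrated stress response list had 0 of 47 lower and 1 higher, in Slc3a2, the heavy chain gene of amino acid transporters (0.94 ± 0.24). NRF2 genes had 2 of 48 lower, both at Gclc, the rate-limiting enzyme of glutathione synthesis (the stronger -1.70 ± 0.32), and interferon response genes 0 of 27 in either direction. Cell cycle genes had 2 of 84 lower, near Ccnd1 (-1.52 ± 0.29) and Cdkn2a (-1.55 ± 0.39). Apoptosis genes had 4 of 77 lower, among them sites at Xiap (-1.91 ± 0.34), Bcl2 (-1.61 ± 0.32) and Pmaip1, and 1 higher.

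Of 5 lists of other lineages, 3 held a larger share of lower sites than the whole table. How many of their sites were higher in untreated KO as deposited, where 67.9% of sites were called lower, was not counted. The shares thus do not show a stronger interaction at these genes. B cell genes had 8 of 22 sites lower (36.4%, against 6.32% of all sites), in Blnk, Pax5, Bank1, Blk and Ebf1, with a median interaction of -0.31. Gamma-delta T cell genes had 6 of 15 (40%), at Zbtb16, Maf, Blk and Sox4, with a median of -0.84, and NK and innate lymphoid genes 5 of 29 (17.2%), at Klrg1, Zbtb16, Il1rl1 and Kit. Myeloid genes had 1 of 16 (6.25%), near Itgam (-1.64 ± 0.23), and CD8 T cell genes 0 of 6. Blk, Zbtb16, Maf and Il1rl1 each stand in 2 lists. Pax5, the B cell identity factor, had 4.57 and 7.74 in KO with acetate, 7.66 and 11.2 in WT with acetate, 51.7, 72.0 and 72.0 in untreated KO and 8.56, 5.63 and 13.9 in untreated WT (-3.30 ± 0.62; limma adjusted p = 0.00444). The 3 untreated KO libraries stood alone, and the other 7 had low signal.

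The summed signal of the B cell list, per 10000 of all signal, ranged from 2.11 to 2.36 in KO with acetate, 2.16 to 2.20 in WT with acetate, 2.79 to 3.21 in untreated KO and 1.93 to 2.26 in untreated WT. For gamma-delta genes it ranged from 1.77 to 1.87 in KO with acetate, 1.57 to 1.86 in WT with acetate, 2.57 to 2.80 in untreated KO and 1.74 to 1.90 in untreated WT. The NK list overlapped between the genotypes within each treatment and was higher in the acetate libraries, at 6.43 to 6.99 in KO with acetate, 6.42 to 6.55 in WT with acetate, 6.15 to 6.30 in untreated KO and 5.74 to 6.33 in untreated WT. The B cell genes Cd79a and Ms4a1 had no site in the table, and the receptor constant region genes Trdc and Tcrg-C1 of gamma-delta cells were not among the genes that sites were assigned to. The part that other cells in the cultures had in these values was not tested, and more cells of a type and more open chromatin per cell cannot be told apart in bulk libraries.

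Promoters were rarely involved. A called negative interaction was found at 19 of 6359 sites over a promoter window (0.299%), against 7.47% of other sites, and a positive one at 6. The 21 promoter windows under lower sites had a median GC content of 49.2% and 4 CpG, and the 6 under higher sites 55.4% and 4.5 CpG, against 61.6% and 18 CpG in the 7614 windows under any site. Il1rn, which encodes the IL-1 receptor antagonist, had 48.8 and 37.2 in KO with acetate, 38.3 and 29.4 in WT with acetate, 118, 87.9 and 110 in untreated KO and 22.8, 22.5 and 18.8 in untreated WT (-1.91 ± 0.37; limma adjusted p = 0.00524). Untreated KO was apart and above the rest.

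Gzmb, the granzyme B gene of cytotoxic cells, went the other way, with 501 and 483 in KO with acetate, 444 and 508 in WT with acetate, 222, 274 and 244 in untreated KO and 395, 427 and 412 in untreated WT. Untreated KO was lowest, and all 4 acetate libraries exceeded untreated WT (0.79 ± 0.21; limma adjusted p = 0.032, called in 3 of 10 fits that left out 1 library). Gbp5, an interferon-induced GTPase gene, was the 1 lower site without a called untreated difference. Its signal was 161 and 189 in KO with acetate, 266 and 258 in WT with acetate, 401, 398 and 415 in untreated KO and 344, 327 and 355 in untreated WT (-0.82 ± 0.20; limma adjusted p = 0.0213, called in 3 of 10 such fits). KO with acetate was the lowest group there.

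The promoter windows of these 3 genes are shown because they are immune genes whose called site overlaps the window shown (135 of 250 bases for Gzmb, 52 for Il1rn and 173 for Gbp5), in the 3 shapes described. They were chosen after their values were seen. Each runs 5′ to 3′ over the 250 bases before the gene's start (RefSeq, GRCm38.p6). Capitals mark matches, on either strand, to the AP-1 motif TGANTCA and the RUNX motif TGTGGTT. The windows are Gzmb at chr14:56262335-56262584, minus strand, Il1rn at chr2:24345041-24345290, plus strand, and Gbp5 at chr3:142496684-142496933, plus strand.
Gzmb: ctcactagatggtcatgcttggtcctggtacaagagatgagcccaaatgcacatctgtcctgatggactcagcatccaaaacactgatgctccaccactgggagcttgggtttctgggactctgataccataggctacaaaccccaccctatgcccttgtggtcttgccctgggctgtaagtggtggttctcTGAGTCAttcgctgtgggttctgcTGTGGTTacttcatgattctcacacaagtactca
Il1rn: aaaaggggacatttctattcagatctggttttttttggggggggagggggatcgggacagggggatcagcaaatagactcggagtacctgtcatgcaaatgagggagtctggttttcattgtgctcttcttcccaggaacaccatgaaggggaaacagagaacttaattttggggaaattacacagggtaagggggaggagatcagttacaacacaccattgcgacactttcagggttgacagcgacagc
Gbp5: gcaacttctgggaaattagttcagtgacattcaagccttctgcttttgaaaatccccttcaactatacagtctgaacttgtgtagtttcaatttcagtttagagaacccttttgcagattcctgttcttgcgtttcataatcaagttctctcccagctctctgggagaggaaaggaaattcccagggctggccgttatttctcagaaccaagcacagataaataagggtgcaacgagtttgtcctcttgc
The Gzmb window holds 1 AP-1 and 1 RUNX match, and the Il1rn and Gbp5 windows hold neither motif. Promoter windows run from 250 bases before to 50 bases after the start, and motifs, GC and CpG were counted over the 250 bases before it. There, 6.75% of 32851 windows hold the AP-1 motif and 4.4% the RUNX motif. Among the 7614 windows under any site the shares are 4.18% and 3.39%.

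Most Cd4 sites differed between the genotypes with acetate as well as without it. Of 8 Cd4 sites, limma called 6 higher in KO than in WT both with acetate (log2 2.47 to 4.53) and untreated, and 0 in the interaction. Of these 6, the site at 124885264 had an interaction of 0.50 ± 0.18 that was called under 3 of the 4 other scalings. Another Cd4 site, at 124864456, was called lower in KO untreated and not called with acetate (log2 0.45 with acetate and -1.30 untreated). At chromosome 6, 124882242 to 124882442, signal was 546 and 574 in KO with acetate, 30.6 and 35.6 in WT with acetate, 626, 592 and 676 in untreated KO and 25.7, 31.0 and 24.8 in untreated WT (interaction -0.45 ± 0.24, limma adjusted p = 0.473). Both KO groups were high, and no KO library overlapped a WT library. The Cre of the KO mice is driven by Cd4 regulatory sequence, and the part that transgene DNA had in these reads was not tested.

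The 9 sites called between KO and WT with acetate were those 6, a site near Lag3, a neighbour of Cd4 on chromosome 6, (log2 2.33 with acetate and 2.12 untreated), and 2 sites on chromosome 3 at 60790238 and 60795381 with no protein-coding gene within 50 kb. The chromosome 3 pair differed by 2.98 and 3.69 with acetate and by 2.00 and 2.69 untreated, and neither was called in the interaction. Close by, the genes Mbnl1 and P2ry1 had 11 sites. All 11 were higher in untreated KO than in untreated WT, by log2 1.58 to 3.09. Of the 11, 5 were called lower, against 67.9% of sites higher in untreated KO as deposited and 6.32% of all sites. At those 5 sites KO against WT with acetate was not called.

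Mitochondrial DNA, which transposase reaches freely when mitochondria are carried over, had 2 sites. The share of signal at them was 0.228% and 0.335% in KO with acetate, 0.201% and 0.463% in WT with acetate, 2.01%, 1.86% and 1.18% in untreated KO and 0.306%, 0.658% and 0.207% in untreated WT. Untreated KO was above all other libraries. The interaction of the share was -1.34 percentage points (two-sided exact permutation p = 0.12 over 100 arrangements of the treatment labels within genotype, smallest possible 0.01). The ND4 site, in a subunit gene of respiratory complex I, was called lower on the median scale (-2.32 ± 0.58, limma adjusted p = 0.0365) and the ND3 site was not (-2.93 ± 0.98, limma adjusted p = 0.179). The share was highest in untreated KO, as was the signal at the nuclear sites called lower. The part of the share in those sites was not tested.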

How the data were processed

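ATAC-seq of 10 libraries was deposited as 1 table of 39657 sites on GRCm38. The deposited values are signal, normalized by the authors with a factor whose making is not described in the sources used here. Each column moves in steps of 1 size (100% of values, tolerance 0.001), and dividing by the step gave the reads in sites. Tools named in the submitters' processing notes, with no role, are BWA 0.7.16a, Genrich, Picard 2.10.9 and FastQC 0.11.5, then deepTools 3.5.1, DESeq, DESeq2 and DiffBind 3.6.1. Columns were divided by their median and multiplied by the mean of the medians, and log2(value + 1) was modelled as 4 group means in R 4.3.3 by limma 3.58.1, using its trend and robust options, with p-values adjusted by Benjamini-Hochberg over all sites. The columns numbered WT 4 and KO acetate 3 have numbers that no sample title lists and were placed by group. Sites took the nearest RefSeq protein-coding gene body within 50 kb (GRCm38.p6; 36444 sites, 91.9%), which does not show regulation. Values with ± are log2 interaction and its SE.

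Genes were named by 3 rules: the 10 most positive and 10 most negative called sites at or above the median signal that kept their sign with each library left out, fixed loci with all their sites, and up to 3 called members of each of 22 lists with the smallest adjusted p. The members and lists were chosen with earlier results of these data known, and some results under these rules are not reported here. Alternatives were 4 other scalings, pseudocount 5, leaving out the weakest of 5 bins of sites, limma without trend and robust, a replicate block, the column prefix as a term, and leaving out libraries. The fit was tested on simulated data. A second check of the recovered reads did not pass in 5 of the 10 columns, so the depths are estimates and the planned count test was not run. Python 3.11.15, numpy 2.4.6, pandas 2.3.3 and matplotlib 3.10.9 served for tables and figures.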

Additional observations from a re-analysis of the deposited data

Results flagged for a closer look

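The difference between the genotypes differed between acetate and untreated cells by the interaction test itself at 2508 sites called lower and 107 called higher (limma, Benjamini-Hochberg adjusted p below 0.05). The table was selected on the untreated difference that this test contains, and the adjusted p-values do not allow for that selection. Named sites called by the test are given here once more with their interaction. The lower interactions among named sites, in log2, were at Aqp4 (-2.93), Arhgap25 (-2.70), Fscn1 (-2.42), Dmc1 (-2.37), Pced1b (-2.34), ND4 (-2.32), Gfpt1 (-2.28), Lemd3 (-2.22) and Stk33 (-2.22). Also lower were sites at Batf (-3.00), Rora (-1.81), Maf (-1.54), Il12rb2 (-1.66), Ifng (-1.49), Rad50 (-2.40), Il5 (-1.54), Il1rl1 (-1.21) and Bach2 (-1.67). Further lower values came from Klf2 (-1.43), Cd44 (-2.13), Jun (-1.13), Cd200 (-1.35), Tox (-1.24), Hk1 (-1.60), Pfkp (-1.73), Suclg2 (-2.07), Pdhx (-1.82) and Pcx (-1.47). Lower values were found as well at Elovl5 (-2.00), Hdac9 (-3.07), Kat6a (-2.46), Hdac8 (-1.43), Gclc (-1.70), Ccnd1 (-1.52), Cdkn2a (-1.55), Xiap (-1.91) and Bcl2 (-1.61). The last lower sites were at Blnk (-1.73), Pax5 (-3.30), Bank1 (-1.68), Itgam (-1.64), Klrg1 (-2.31), Zbtb16 (-2.81) and Blk (-2.14). The higher interactions were at Plb1 (1.35), Grk5 (1.19), Gm10277 (1.12), Pecam1 (1.11), Parp3 (1.08), Als2cl (1.01), Rab11fip4 (1.00), Zbtb12 (0.99), Spred3 (0.98), Alg14 (0.96), Fosl2 (0.88) and Slc3a2 (0.94). Groups held 2 or 3 libraries, too few for a search for single outlying libraries.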

How the results depend on the processing

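Counts are given as lower and higher called sites, beside 2508 and 107 on the median scale. The values as deposited gave 1431 and 7728 (median interaction 0.67), leaving out the weakest of 5 bins of sites 1300 and 54, cyclic loess 55 higher, limma without trend and robust 209 higher, the column prefix as a term 570 higher and untreated WT from its ATAC2 column alone 2377 higher. A replicate block on the column numbers gave 2912 and 739, and same-numbered libraries did not deviate together (correlations from -0.125 to 0.331 over 10 pairs), so the numbers were not taken as pairing. Of the sites called in the gene lists (59 and 6), the values as deposited gave 35 and 351, leaving out that bin 31 lower, the replicate block 36 higher, the prefix term 28 higher and the single untreated WT library 87 higher. Fits that each left out 1 library gave 1443 to 3051 lower and 13 to 581 higher sites, 33 to 67 lower and 0 to 29 higher list sites, a median interaction of 0.04 to 0.10, and -1.60 to -1.18 percentage points for the mitochondrial share. In all 10 of these fits 1077 of the lower and 3 of the higher sites were called, and under all 4 other scalings 1386 and 45. The cause of these shifts was not tested. Of 59 sites chosen by the naming rules (46 with the weakest bin left out), 0 reversed under any setting, and up to 22 lost their call (22 without KO acetate 1, 21 without WT acetate 2, 18 without KO acetate 3, 14 as deposited). These 59 were chosen as called in the same data, so the lack of reversals describes the choice and does not support the calls. All 2508 lower and 107 higher sites kept their sign with each library left out, so that naming rule removed none. The count test on recovered reads was not run. The main limits are 2 libraries per acetate group, a column prefix tied to treatment, and a table selected on the untreated difference.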
